A study of Rattus norvegicus with 15 samples.

Results

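The chemokines and chemokine receptors carried by this array were 26 genes with 28 probes, out of 4153 named genes and 5088 spotted probes. They were taken by symbol: every probe whose platform symbol starts with Ccl, Cxcl, Cx3c, Xcl, Pf4, Ppbp, Ccr or Cxcr, with a number after Ccl, Cxcl, Ccr and Cxcr. No measured value entered this rule, but the set was chosen with earlier results of these data known. The set held 17 ligand genes with 18 probes and 9 receptor genes with 10 probes. Ccl2 and Cxcr4 had 2 probes each, and all 28 gene identifiers carried the same symbol in the GRCr8 gene table. The ratio was present on all 15 arrays for 27 of the 28 probes, and Ccl20 lacked it on array 3 at 6 h.

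Each array compared RNA from rat dorsal root ganglion (DRG) cells treated with 1.5 mM dbcAMP, a form of cyclic AMP that enters cells, with RNA from cells kept in medium alone. All cultures were dissociated L4 and L5 DRG of juvenile rats in Sato medium, on poly-L-lysine or on myelin, and the labels do not say which substrate belongs to which array. There were 3 arrays at each of 1, 3, 6, 12 and 18 h, although the treatment description lists 0 h in place of 1 h. The treated channel was Cy5 and the control channel Cy3 on every array, so a bias of the dyes for a probe adds to its value at each time. Such a bias cancels in a difference between times only if it was constant. Nothing in the labels ties the 3 arrays of a time to 3 independent cultures, so each p-value below reflects differences among arrays that may be only technical. A DRG culture is a mixture of sensory neurons, glia, fibroblasts and immune cells. In such RNA, fewer cells of a type and less RNA per cell cannot be told apart. A ratio gives no level of a gene, so the presence of each cell type could not be checked from its markers.

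Chemokines are small secreted proteins that draw cells along their gradient by binding receptors that couple to inhibitory G proteins. The CXC ligands with a glutamate-leucine-arginine motif (Cxcl1, Cxcl2, Cxcl3 and Cxcl6) act through Cxcr2 and attract neutrophils, whereas most CC ligands attract monocytes, lymphocytes or dendritic cells. In sensory ganglia, Ccl2 and Cx3cl1 are known from neurons and glia after nerve injury, and their receptors Ccr2 and Cx3cr1 mark monocytes and macrophages.

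Values are log2 of the deposited ratio, treated over control, so that 1 is a 2-fold higher signal in treated cells. A probe was called when its limma p-value, adjusted by Benjamini-Hochberg over all probes of the comparison, was under 0.05. The array medians of the ratio lay between 0.997 and 1.02. Log2 values spread with an SD of 0.357 to 0.434 on 9 arrays. The 6 others were wider, with an SD of 0.627 to 0.703, and comprised all of 18 h, the first and second arrays of 12 h and the third of 6 h. Medians also moved with the first digits of a probe's name, which were read here as its print plate. At 18 h, plates up to 35 held 474 probes called higher and 181 called lower among 3335, and plates 36 and above held 59 higher and 387 lower among 1671. The 20 chemokine and receptor probes of the first set of plates held 7 called higher and 1 lower, and the 8 of the other set held 0 higher and 2 lower. The part of the plate and of the wide arrays in the results was not tested apart from the settings given beside them.

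Members were called in both directions at 6, 12 and 18 h, and only higher at 1 h and 3 h. More of the set's probes were called than of all probes at most times. At 18 h, 10 of 28 probes (35.7%) were called, against 22.0% of the 5006 probes tested. Of these, 7 were higher (25%, against 10.6% of all probes) and 3 were lower (10.7%, against 11.3%). The share called lower was thus near that of all probes. At 1 h 3 of 28 were called, against 2.33% of all probes, and all 3 were ligands that were higher. At 3 h Cxcl2 was the 1 probe called, against 2.87% of all. At 6 h 3 were called, against 4.19%, and at 12 h 8 were called, against 8.58%. The median of the 28 means was 0.11, -0.04, -0.04, -0.10 and 0.09 at 1, 3, 6, 12 and 18 h, beside 0.02, 0.02, 0.02, -0.00 and 0.01 over all probes. A median near 0 here came with single members from -2.22 to 1.47 at 18 h. Comparing 18 h with 1 h, 4 of 28 probes differed, against 2.74% of all probes. The F test over the 5 times called 5 of 28, against 1.87% of all. These 5 were Ccl2 probe 26C01, Cxcl1, Ccl20, Cxcl2 and Ccr2, with adjusted p of 0.0118, 0.0145, 0.0328, 0.0403 and 0.0418 in that order.

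**Figure D1:**
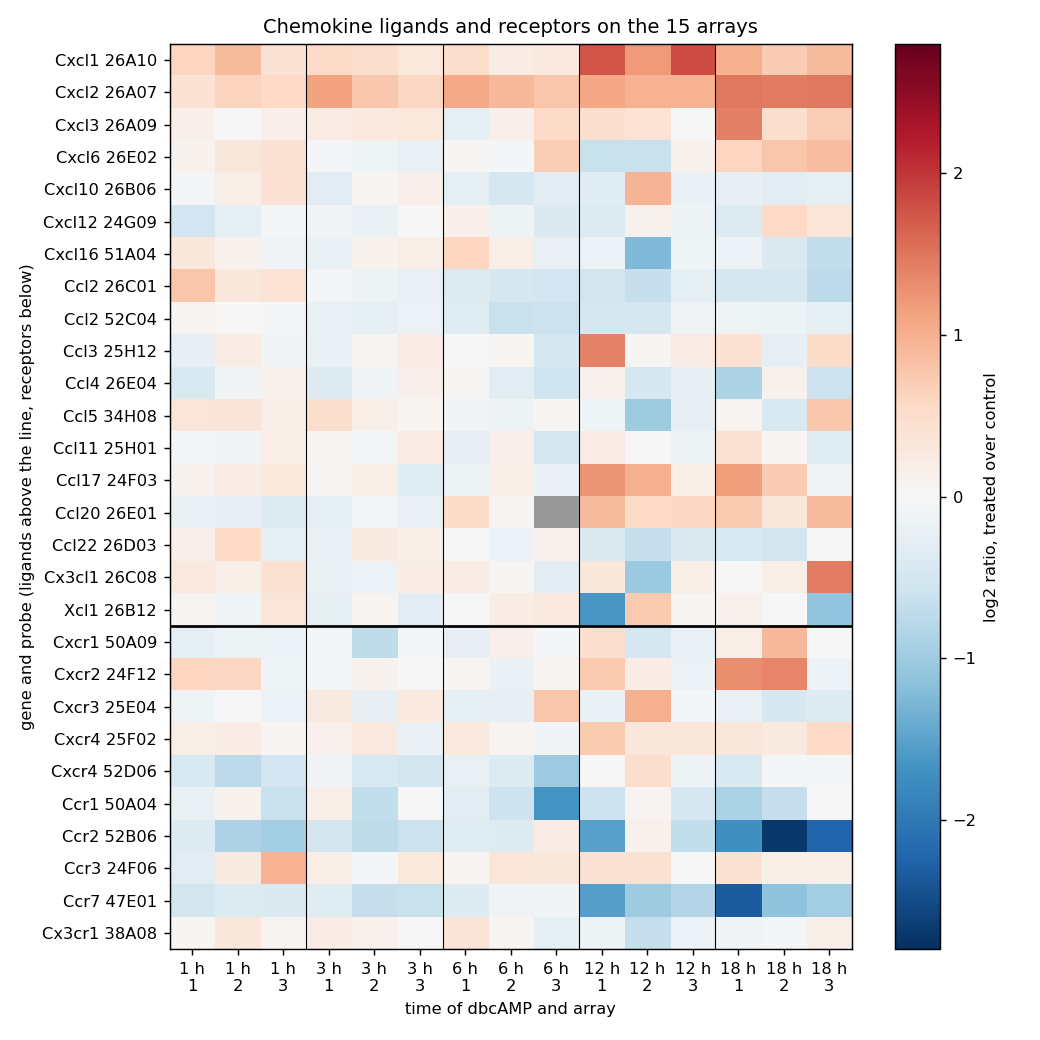
Log2 ratio of treated over control for each of the 28 probes (rows, ligands above the black line and receptors below) on each of the 15 arrays (columns, by hours of dbcAMP and array number). Cxcl2 is red on every array, Ccr7 is blue on every array, and Ccr2 is darkest at 18 h, from -1.73 to -2.71. The grey cell is the missing Ccl20 ratio.

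The genes for the neutrophil-attracting ligands lie together on rat chromosome 14 in GRCr8, Cxcl2 at chr14:17465210-17467255, Cxcl1 at chr14:17477542-17479321, Cxcl3 at chr14:17571900-17573624 and Cxcl6 at chr14:17594959-17596417. The build behind the array's own design is not given in the sources used here. Their coding sequences are closely related, the probe sequences were not used here, and cross-hybridisation among them was not tested. Promoter windows of the RefSeq table for GRCr8 were available for 19 of the 26 genes, and the 7 others, Ccl2, Ccl3, Ccl4, Ccl5, Ccl11, Cxcl3 and Ccr7, are named only. The 150 bases before the start are shown for the 5 ligands with a window that were called higher at 12 h or 18 h, and for Cxcl10, which was not called. Capitals mark matches to the NF-kappaB consensus, and Ccl17 has none.
Cxcl1, chr14:17479322-17479471, minus strand: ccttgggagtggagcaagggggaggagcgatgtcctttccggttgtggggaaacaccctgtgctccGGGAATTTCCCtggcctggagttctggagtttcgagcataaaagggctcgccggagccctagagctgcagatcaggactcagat
Cxcl2, chr14:17467256-17467405, minus strand: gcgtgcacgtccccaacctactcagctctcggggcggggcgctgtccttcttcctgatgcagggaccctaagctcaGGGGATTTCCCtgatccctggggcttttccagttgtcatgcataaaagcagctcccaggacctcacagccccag
Cxcl6, chr14:17596418-17596567, minus strand: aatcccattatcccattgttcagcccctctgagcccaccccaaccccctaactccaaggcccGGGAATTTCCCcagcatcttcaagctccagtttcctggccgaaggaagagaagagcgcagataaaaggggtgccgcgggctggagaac
Ccl20, chr9:91837009-91837158, plus strand: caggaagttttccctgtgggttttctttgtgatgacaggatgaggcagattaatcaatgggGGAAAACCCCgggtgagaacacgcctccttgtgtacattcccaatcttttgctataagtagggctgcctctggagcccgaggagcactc
Ccl17, chr19:10209896-10210045, minus strand: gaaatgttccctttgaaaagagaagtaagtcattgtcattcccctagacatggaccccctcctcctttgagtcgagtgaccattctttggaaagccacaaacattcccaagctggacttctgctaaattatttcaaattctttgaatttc
Cxcl10, chr14:15988916-15989065, plus strand: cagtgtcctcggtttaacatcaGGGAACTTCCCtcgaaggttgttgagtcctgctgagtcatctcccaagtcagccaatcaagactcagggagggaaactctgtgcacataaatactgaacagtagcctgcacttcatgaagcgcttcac
In the 250 bases before the start, on both strands, this consensus was found in 6 of the 19 genes (Cxcl1, Cxcl2, Cxcl6, Ccl20, Cxcl10 and Ccr3) and in 6.32% of 33465 windows of the same length. The match begins 84, 74, 88 and 89 bases before the start in Cxcl1, Cxcl2, Cxcl6 and Ccl20. Cxcl10 and Ccr3 held it with no call at any time, and Ccl17, Cxcr2 and Cxcr4 were called higher without it. Some windows, among them those of Ccl17 and Ccr3, lie inside the gene (chr19:10208120-10218340 and chr8:132463533-132511601). The sequence before the first base of these genes was not searched. The full cyclic AMP response element, TGACGTCA, was in 0 of the 19 and in 1.59% of all windows. Its core TGACG, which the full element contains, was in 3 (Cxcl1, Cxcl12 and Cxcr4) and in 18.2% of all windows. The AP-1 site TGANTCA was in 2 (Ccr3 and Cxcl10) and in 6.34% of all windows. These are matches of letters in a short window, not measured binding sites.

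Cxcl2, a ligand of Cxcr2, was higher on all 15 arrays and was the 1 member called at every time, as were 0.222% of the 4964 probes testable at all 5 times. Its log2 ratios were 0.39, 0.63 and 0.55 at 1 h, 1.13, 0.75 and 0.57 at 3 h, and 1.06, 0.91 and 0.79 at 6 h. They were 1.09, 0.97 and 0.97 at 12 h and 1.48, 1.45 and 1.47 at 18 h. The 3 arrays of 18 h lay above all 12 earlier arrays. The 18 h mean was 1.47 ± 0.017 (SD, n = 3), 2.77-fold, with a limma adjusted p of 1.81e-06. It ranked 28 from the top of 5006 probes. The means of the earlier times were 0.52, 0.82, 0.92 and 1.01, with limma adjusted p of 0.0229, 0.000787, 0.000305 and 0.000109. The 1 h call was lost on leaving out any 1 array of that time (adjusted p from 0.0857 to 0.225) and on centring each plate (0.43, adjusted p = 0.0922). The difference of 18 h from 1 h was 0.94 ± 0.15 (SE), adjusted p = 0.00719 in the same fit. On arrays scaled to a common spread that difference was 0.28 (adjusted p = 0.739).

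Cxcl1, which shares the receptor Cxcr2, was also higher on all 15 arrays but peaked earlier. Its ratios were 0.60, 0.89 and 0.40 at 1 h, 0.54, 0.48 and 0.30 at 3 h, and 0.50, 0.22 and 0.27 at 6 h. They were 1.76, 1.20 and 1.83 at 12 h and 0.99, 0.72 and 0.89 at 18 h. The 12 h arrays did not overlap with those of any other time. The mean was 0.63 at 1 h (limma adjusted p = 0.0234), 1.60 at 12 h (1.25e-05) and 0.86 ± 0.14 (SD, n = 3) at 18 h, 1.82-fold (0.000512). The difference of 12 h from 1 h was 0.96 (adjusted p = 0.0579) and that of 18 h from 12 h was -0.73 (adjusted p = 0.0902), so neither passed the threshold. With array weights the former did (1.05, adjusted p = 0.0285). The 1 h call was lost on leaving out any 1 array of that time (adjusted p from 0.0682 to 0.275) and on centring plates (0.54, adjusted p = 0.0934). The 18 h call was lost on scaled arrays (0.56, adjusted p = 0.124).

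Cxcl3 and Cxcl6 were called at 18 h alone. Cxcl3, another ligand of Cxcr2, had 0.14, 0.00 and 0.14 at 1 h, 0.23, 0.26 and 0.29 at 3 h, and -0.26, 0.14 and 0.53 at 6 h. Its ratios were 0.46, 0.38 and -0.01 at 12 h and 1.40, 0.47 and 0.68 at 18 h, and array 2 of 18 h lay below array 3 of 6 h. The 18 h mean was 0.85 ± 0.49 (SD, n = 3), 1.81-fold, with a limma adjusted p of 0.00322. The call stayed when any 1 array was left out, the lowest value being 0.58 without array 1. The difference of 18 h from 1 h was 0.75 (limma adjusted p = 0.125). Neither this nor the F test over the times (adjusted p = 0.339) passed the threshold.

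Cxcl6, the remaining ligand of this kind, lay on both sides of 0 before 18 h and above control at 18 h. It had 0.11, 0.32 and 0.40 at 1 h, -0.05, -0.12 and -0.21 at 3 h, and 0.03, -0.03 and 0.68 at 6 h. At 12 h it had -0.62, -0.62 and 0.12, and at 18 h 0.60, 0.78 and 0.87. The 18 h and 12 h arrays did not overlap. The 18 h mean was 0.75 ± 0.14 (SD, n = 3), 1.68-fold, with a limma adjusted p of 0.00437. The difference of 18 h from 12 h was 1.12 (adjusted p = 0.0423), in a comparison that called 1 of 28 members and 0.622% of all probes. It was lost without replicate 1 (1.08, adjusted p = 0.232) or 2 (0.99, 0.34), on scaled arrays (0.73, 0.428) and on centred plates (1.07, 0.0617). The difference of 18 h from 1 h was 0.47 (limma adjusted p = 0.313). Neither this nor the F test over the times (adjusted p = 0.0843) passed the threshold.

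**Figure D2:**
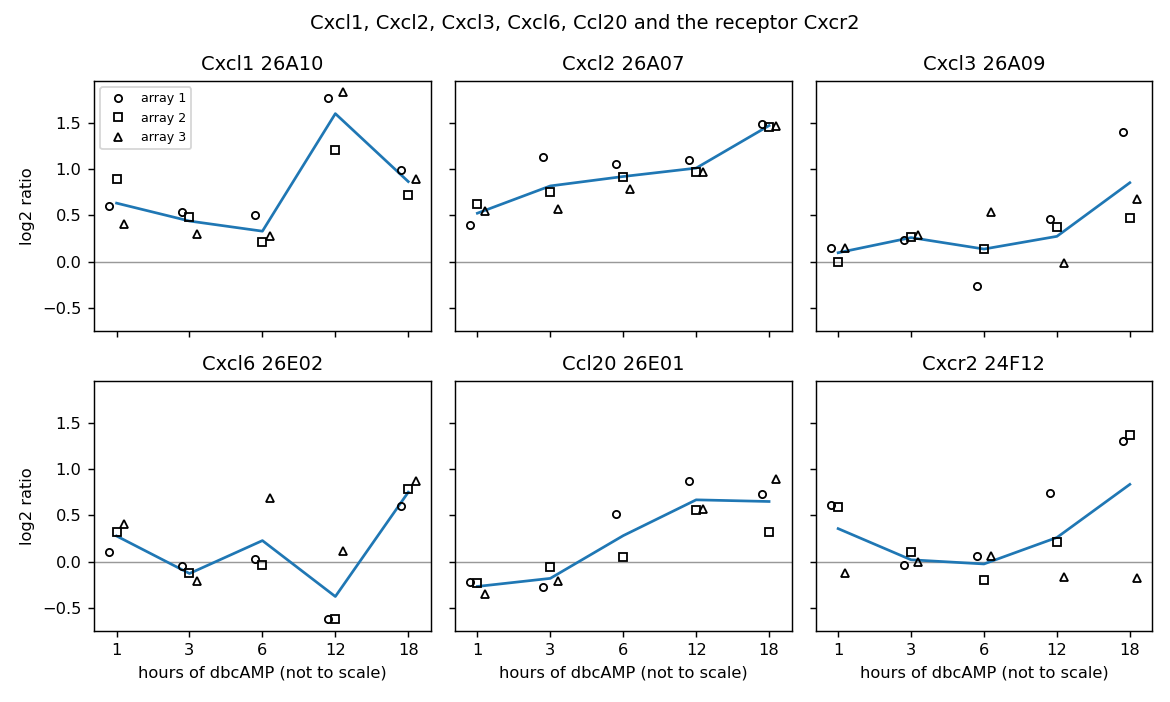
Log2 ratio (y axis) at each time of dbcAMP (x axis, hours, spaced evenly) for Cxcl1, Cxcl2, Cxcl3, Cxcl6, Ccl20 and the receptor Cxcr2. Symbols are single arrays and the line joins the means of the times. Cxcl2 has its highest mean at 18 h (1.47), Cxcl1 at 12 h (1.60), and array 3 of Cxcr2 stays at -0.17 at 18 h.

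Ccl20, a CC ligand that attracts cells bearing Ccr6 (a receptor with no probe in the set), went from below control to above it. Its ratios were -0.21, -0.23 and -0.35 at 1 h, -0.27, -0.06 and -0.21 at 3 h, and 0.51 and 0.05 on the 2 arrays with a value at 6 h. They were 0.87, 0.55 and 0.57 at 12 h and 0.73, 0.32 and 0.90 at 18 h. All 6 arrays of 1 h and 3 h were below 0 and all 8 later ones above 0. The early means were not called, at 1 h (-0.27, limma adjusted p = 0.556) or at 3 h (-0.18, 0.841). The mean was 0.67 at 12 h (limma adjusted p = 0.00773) and 0.65 ± 0.29 (SD, n = 3) at 18 h, 1.57-fold (0.00354). The difference of 18 h from 1 h was 0.92 ± 0.18 (SE), adjusted p = 0.0211. It missed the threshold without replicate 1, 2 or 3 (adjusted p of 0.215, 0.103 and 0.201) and on scaled arrays (0.76, adjusted p = 0.101). On scaled arrays the 18 h value was 0.42 (adjusted p = 0.0536). The 12 h call was lost without array 1 (0.56, adjusted p = 0.0763).

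Ccl17, a ligand of Ccr4 made by dendritic cells, was called at 12 h alone. It had 0.11, 0.20 and 0.29 at 1 h, 0.03, 0.19 and -0.34 at 3 h, and -0.15, 0.18 and -0.19 at 6 h. It had 1.24, 1.01 and 0.19 at 12 h and 1.17, 0.70 and -0.10 at 18 h. Arrays 1 and 2 were high at both late times and array 3 at neither. The 12 h mean was 0.81 (limma adjusted p = 0.0367), beside 0.60 without array 1 (0.246) and 0.72 without array 2 (0.171). Centring plates (0.66, adjusted p = 0.0735) and scaling arrays (0.60, adjusted p = 0.0577) also lost the call. At 18 h the mean was 0.59 (adjusted p = 0.0721). The median of its plate was 0.22 at 18 h.

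Ccl2, the main attractant of monocytes through Ccr2, was measured by 2 probes. Probe 26C01 had 0.77, 0.32 and 0.39 at 1 h, -0.03, -0.15 and -0.20 at 3 h, and -0.39, -0.48 and -0.53 at 6 h. It had -0.52, -0.65 and -0.28 at 12 h and -0.47, -0.46 and -0.73 at 18 h. It was above control on the 3 arrays of 1 h and below on the 12 others. Its means were 0.49 at 1 h (limma adjusted p = 0.0356), -0.47 at 6 h (0.0323), -0.48 at 12 h (0.0174) and -0.56 ± 0.15 (SD, n = 3) at 18 h, 0.68-fold (0.00316). The differences from 1 h were -0.96 at 6 h (adjusted p = 0.037), -0.97 at 12 h (0.0208) and -1.05 ± 0.16 (SE) at 18 h (0.00345). The comparison of 6 h with 1 h called 1 of 28 members and 0.139% of all probes, and that of 12 h with 1 h called 1 of 28 and 0.300%, and in both this probe was the member called.

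Probe 52C04 of Ccl2 had 0.08, -0.01 and -0.03 at 1 h, -0.21, -0.26 and -0.17 at 3 h, and -0.34, -0.63 and -0.61 at 6 h. It had -0.48, -0.47 and -0.10 at 12 h and -0.13, -0.15 and -0.25 at 18 h. Both probes were below control on all 12 arrays from 3 h on, and at 1 h one was above control and the other at its level. The means of 52C04 were -0.52 at 6 h (limma adjusted p = 0.00871), -0.35 at 12 h (0.0462) and -0.18 at 18 h (0.24), and its difference of 18 h from 1 h was -0.19 (0.561). The median of its plate at 18 h was -0.33, against 0.16 for the plate of 26C01, and on centred plates its 18 h value was 0.16 (adjusted p = 0.261). The lower value at 18 h therefore rested on probe 26C01.

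Several of the Ccl2 calls depended on single arrays or settings. For 26C01 the 1 h call was lost without any 1 array of that time (adjusted p from 0.0934 to 0.374) and on centred plates (0.39, adjusted p = 0.215). Its 6 h call was lost without any 1 array (adjusted p from 0.0867 to 0.169), and its 12 h call without array 1 (0.0983) or array 2 (0.111), on scaled arrays (-0.39, 0.0654) and with array weights (0.136). The difference of 6 h from 1 h was lost on centred plates (-0.93, 0.0851). At 18 h it stayed called without any 1 array and was -0.36 on scaled arrays (adjusted p = 0.0639). The differences from 1 h were lost without any 1 replicate number, with adjusted p from 0.553 to 0.843 at 6 h and from 0.151 to 0.657 at 12 h. That of 18 h was also lost without replicate 1, 2 or 3 (adjusted p of 0.135, 0.0825 and 0.0711) and stayed called on scaled arrays (-1.0, adjusted p = 0.0161). For 52C04 the 6 h call was lost without array 2 (-0.47, adjusted p = 0.0668) or array 3 (-0.48, 0.0659). Its 12 h call was lost without array 1 (-0.29, 0.238) or array 2 (-0.29, 0.204), on scaled arrays (-0.26, 0.157) and on centred plates (-0.18, 0.281).

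Ccr2, the receptor for Ccl2 on monocytes, had the lowest value of the set. Its ratios were -0.36, -0.85 and -0.95 at 1 h, -0.50, -0.70 and -0.60 at 3 h, and -0.35, -0.36 and 0.20 at 6 h. They were -1.52, 0.12 and -0.69 at 12 h and -1.73, -2.71 and -2.22 at 18 h. It was below control on 13 of 15 arrays, and the arrays of 18 h lay below the rest. The 18 h mean was -2.22 ± 0.49 (SD, n = 3), 0.215-fold, with a limma adjusted p of 5.38e-05, and it ranked 16 from the bottom of 5006 probes. The call stayed without any 1 array, on scaled arrays (-1.46) and on centred plates (-1.89), the median of its plate being -0.33. The difference of 18 h from 1 h was -1.50 ± 0.36 (SE), adjusted p = 0.041. It was lost without replicate 1, 2 or 3 (adjusted p of 0.127, 0.202 and 0.209), on centred plates (-1.30, 0.0843) and on scaled arrays, where it was -0.52 (0.592).

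Ccr7, which guides lymphocytes and dendritic cells to lymph nodes, was below control on all 15 arrays. Its ratios were -0.52, -0.38 and -0.41 at 1 h, -0.33, -0.65 and -0.62 at 3 h, and -0.36, -0.11 and -0.08 at 6 h. They were -1.54, -1.0 and -0.82 at 12 h and -2.33, -1.14 and -0.97 at 18 h. The 6 arrays of 12 h and 18 h lay below the 9 earlier ones. The mean was -1.12 at 12 h (limma adjusted p = 0.00523) and -1.48 ± 0.74 (SD, n = 3) at 18 h, 0.359-fold (0.000295), and it ranked 83 from the bottom. Without array 1 the 18 h value was -1.05, still called, and the 12 h value was -0.91 (adjusted p = 0.0658). The median of its plate at 18 h was -0.29, and on centred plates the value was -1.18, still called. The difference of 18 h from 1 h was -1.04 ± 0.30 (SE), adjusted p = 0.0850.

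**Figure D3:**
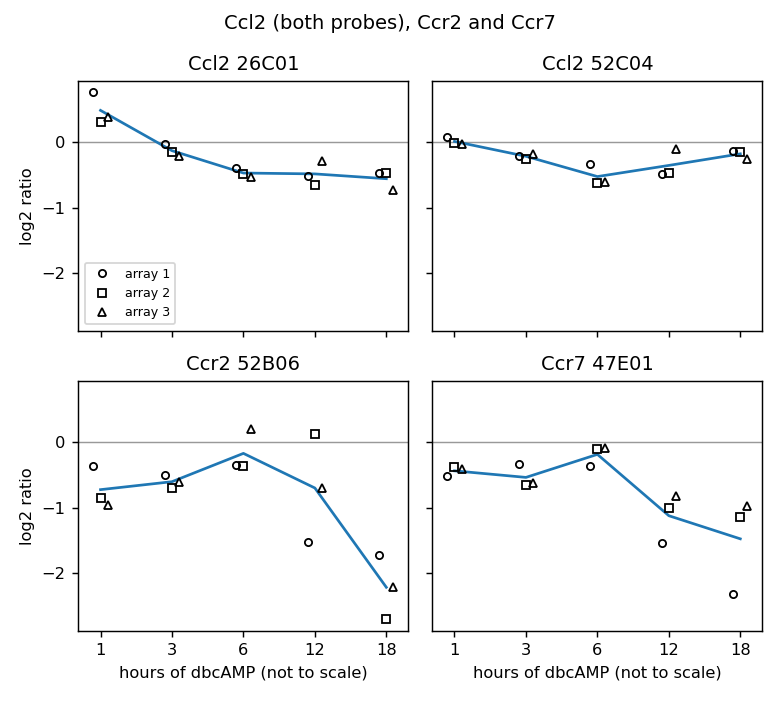
Log2 ratio (y axis) at each time of dbcAMP (x axis, hours, spaced evenly) for both probes of Ccl2 and for Ccr2 and Ccr7. Symbols are single arrays and the line joins the means of the times. Ccl2 probe 26C01 goes from a mean of 0.49 at 1 h to -0.56 at 18 h, probe 52C04 is lowest at 6 h (-0.52), and Ccr2 reaches -2.22 at 18 h.

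Cxcr2, the receptor of the neutrophil-attracting CXC ligands, was called at 18 h but its arrays disagreed. Its ratios were 0.61, 0.59 and -0.13 at 1 h, -0.03, 0.10 and -0.01 at 3 h, and 0.06, -0.19 and 0.06 at 6 h. They were 0.74, 0.21 and -0.16 at 12 h and 1.30, 1.37 and -0.17 at 18 h. The 18 h mean was 0.83 ± 0.87 (SD, n = 3), 1.78-fold, with a limma adjusted p of 0.031. It was 0.60 without array 1 (adjusted p = 0.207), 0.57 without array 2 (0.212) and 1.34 without array 3. The median of its plate at 18 h was 0.22, and the call was lost on centred plates (0.62, adjusted p = 0.104) and on scaled arrays (0.54, 0.138). Cxcr1, a related receptor for the same ligand family, had a mean of 0.36 at 18 h (adjusted p = 0.215).

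Cxcr4, the receptor for Cxcl12 on leukocytes, neurons and progenitor cells, had 2 probes that did not give the same picture. Probe 25F02 had 0.18, 0.22 and 0.02 at 1 h, 0.13, 0.27 and -0.19 at 3 h, and 0.28, 0.08 and -0.07 at 6 h. It had 0.73, 0.32 and 0.31 at 12 h and 0.32, 0.26 and 0.55 at 18 h, above control on all 6 late arrays. Its means were 0.45 at 12 h (limma adjusted p = 0.0367) and 0.38 ± 0.15 (SD, n = 3) at 18 h, 1.30-fold (0.0409). The 18 h call was lost without array 1, 2 or 3 (adjusted p of 0.0934, 0.0655 and 0.203) and on scaled arrays (0.25, 0.276). The 12 h call was lost without array 1 (0.31, 0.251) or array 2 (0.52, 0.0664), on centred plates (0.41, 0.0599) and on scaled arrays (0.38, 0.106).

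Probe 52D06 of Cxcr4 was below control on all 9 arrays up to 6 h and was never called. It had -0.43, -0.74 and -0.53 at 1 h, -0.07, -0.43 and -0.52 at 3 h, and -0.20, -0.39 and -1.02 at 6 h. It had 0.01, 0.49 and -0.15 at 12 h and -0.43, -0.06 and -0.06 at 18 h, where its mean was -0.18 (adjusted p = 0.468) and the median of its plate was -0.33. On centred plates its 18 h value was 0.15 (adjusted p = 0.602). Cxcl12, the ligand of Cxcr4, had -0.54, -0.25 and -0.04 at 1 h, -0.07, -0.19 and 0.00 at 3 h, and 0.13, -0.14 and -0.42 at 6 h. It had -0.38, 0.13 and -0.15 at 12 h and -0.38, 0.56 and 0.34 at 18 h, on both sides of 0 at the late times. Its 18 h mean was 0.17 (adjusted p = 0.507).

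Cx3cl1, a membrane-bound ligand known from neurons, and Cx3cr1, its receptor on macrophages and microglia, passed no threshold. Cx3cl1 had 0.27, 0.16 and 0.43 at 1 h, -0.18, -0.16 and 0.20 at 3 h, and 0.20, 0.04 and -0.30 at 6 h. It had 0.32, -1.04 and 0.17 at 12 h and 0.01, 0.16 and 1.43 at 18 h, so that array 3 alone was high at 18 h (mean 0.53, adjusted p = 0.174). Cx3cr1 had 0.05, 0.32 and 0.07 at 1 h, 0.20, 0.13 and 0.01 at 3 h, and 0.36, 0.09 and -0.24 at 6 h. It had -0.15, -0.66 and -0.16 at 12 h and -0.08, -0.05 and 0.16 at 18 h. The 12 h mean was -0.32, and the 18 h mean of 0.01 had an adjusted p of 0.969.

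In all, 16 of the 28 probes passed no threshold at any time, in the difference of 18 h from 1 h or in the F test. The 10 ligand probes among them had time means between -0.51 and 0.56, and the 6 receptor probes between -0.84 and 0.36. Ccl3, Ccl4 and Ccl5, inflammatory ligands made by macrophages and T cells, had 18 h means of 0.23, -0.45 and 0.14. For Ccl4 the limma adjusted p was 0.0994, and on centred plates it was called (-0.61, 0.0359). Ccl11, which attracts eosinophils through Ccr3, had 0.03, and Ccr3 had 0.25. Ccl22, which shares Ccr4 with Ccl17, had -0.31 at 18 h (adjusted p = 0.168) and was also called on centred plates (-0.47, 0.0432). The remaining means lay below 0 without passing the threshold. Cxcl10, an interferon-induced ligand of Cxcr3, had -0.26 with arrays between -0.29 and -0.23, Cxcr3 had -0.34 and Xcl1, a T cell and natural killer cell product, had -0.34, with arrays between -1.10 and 0.11. Cxcl16, the membrane-bound ligand of Cxcr6, had -0.42 (adjusted p = 0.17), and Ccr1 had -0.51 (0.179).

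**Figure D4:**
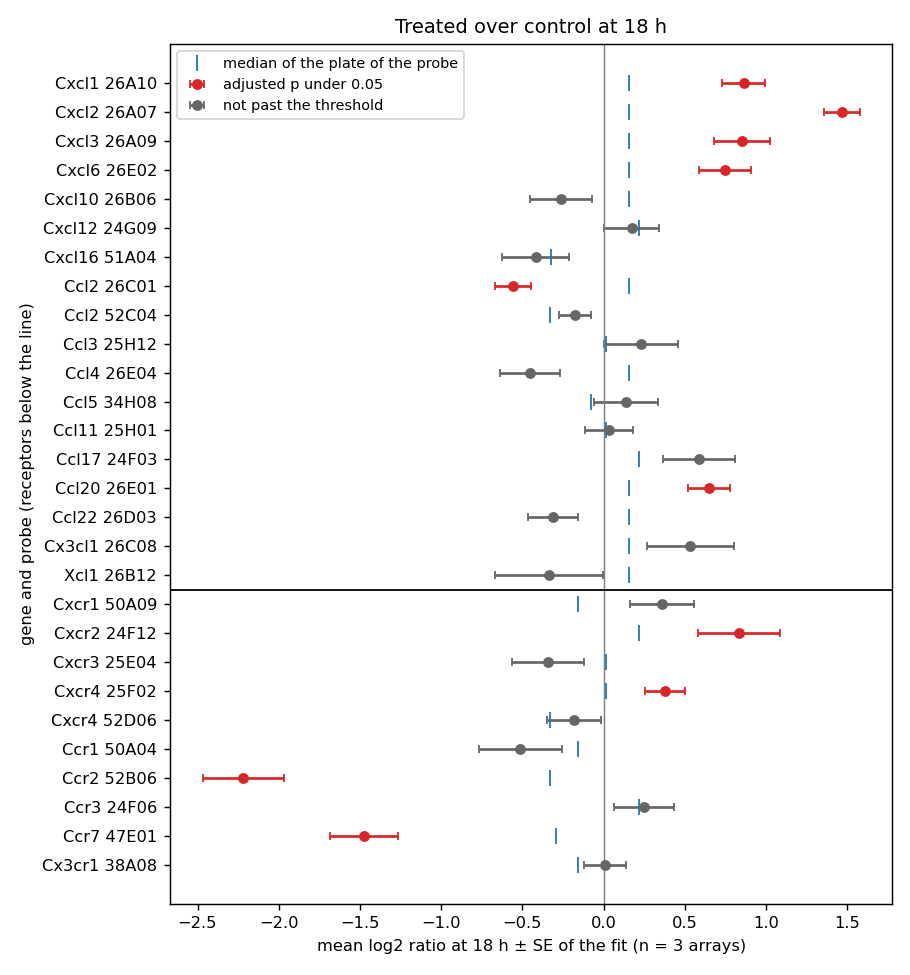
Mean log2 ratio at 18 h (x axis) of each of the 28 probes (y axis), with the SE of the fit over 3 arrays as bars. Red points passed an adjusted p of 0.05, grey points did not, and blue ticks mark the median of the print plate of the probe. The 4 neutrophil-attracting ligands at the top lie between 0.75 and 1.47, and Ccr2 and Ccr7 lie at -2.22 and -1.48.

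Around the chemokines, genes of the same pathways were called in both directions at 18 h, where the median over all probes was 0.01 and 22.0% of all probes were called. A count near that share is no result about its list, and no list was tested against the other probes. The list of atypical receptors and other chemoattractants had 9 of its 23 genes on the array, of which 4 were called higher and 0 lower, with a median of 0.25. The smallest p belonged to Ackr3, which scavenges Cxcl12 (1.22, limma adjusted p = 9.4e-05), followed by Mif, a secreted cytokine that binds Cxcr2 and Cxcr4 (0.60, 0.000675), and Cmklr1, the chemerin receptor (1.18, 0.0122). Ackr3 and Cmklr1 lay on a plate with a median of 0.22, and on centred plates the list had 3 higher and on scaled arrays 2.

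Chemokine receptor signalling (27 of 39 genes, 29 probes) had 1 higher and 4 lower with a median of -0.10, so 5 of 29 were called, below the share of all probes. On scaled arrays it had 0 higher and 2 lower, and on centred plates 1 and 6. Stat5a, a transcription factor of cytokine signalling, was lower on probe 47A04 (-1.24, limma adjusted p = 0.000154) and higher on probe 7H01 (0.65, 0.0345). Lyn, a kinase of blood cells (-1.16, 0.000182), and Jak3, a cytokine receptor kinase (-0.69, 0.00466), were lower. The plate medians at 18 h were -0.29 for Stat5a probe 47A04, 0.23 for its probe 7H01, -0.39 for Lyn and -0.18 for Jak3. NF-kappaB and inflammatory cytokine genes (18 of 31 genes, 20 probes) had 1 higher and 3 lower with a median of -0.14, so 4 of 20 were called, close to the share of all probes. On scaled arrays it had 1 higher and 0 lower, and on centred plates 2 and 3. In the list, Nos2, the inducible nitric oxide synthase, was higher (1.00, adjusted p = 0.00136), and Nfkbia, the inhibitor of NF-kappaB (-0.60, 0.00347), and Vcam1, an adhesion molecule for leukocytes (-1.37, 0.0322), were lower.

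Markers of leukocytes were called in both directions at 18 h. Of 8 macrophage marker probes, 0 were called higher and 2 lower, with a median of -0.26, beside 22.0% of all probes, and 1 was called lower both on scaled arrays and on centred plates. The 2 called were Ncf1, a subunit of the phagocyte oxidase (-2.45, limma adjusted p = 0.00147), and Lyz2, the macrophage lysozyme (-0.56, 0.0379). The others did not pass the threshold and lay on both sides of 0. They were Cybb (0.82), Aif1 (0.27), Csf1r (-0.01), Itgam (-0.04), Ptprc (-0.47) and Cd14 (-1.085). Of 15 probes for lymphocytes, mast cells and granulocytes, 4 were higher and 3 lower, beside 22.0% of all probes called, with a median of 0.03. The neutrophil proteins S100a9 (-1.95, 2.19e-08) and S100a8 (-2.08, 8.46e-07) were lower and the T cell coreceptor Cd8a was higher (0.95, 0.000512). Gzmb was higher on probes 13D11 (1.88, 0.00209) and 13A10 (0.86, 0.000935) and had 0.03 on probe 13E12. Klrd1 was lower (-0.55, 0.0104). Of the other T cell markers, Cd4 was higher (0.59, 0.00839), and Cd8b (-0.04), Cd3g (-0.24), Cd5 (-0.96), Cd2 (0.30) and Cd3d (0.21) did not pass the threshold. The part of these cells in the values of Ccr2, Ccr7 and the ligands was not tested.

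Markers of the resident cells were called in both directions, except those of endothelium. Of 20 sensory neuron probes 1 was higher and 3 lower (median -0.12), the smallest p being those of Uchl1 (-0.84, limma adjusted p = 0.00117), Ntrk2 (-0.63, 0.00165) and Stmn2 (-0.51, 0.00597), while Nefl was higher on probe 27F06 (1.03, 0.0271) and had -0.01 on its other probe. These were 4 of 20, close to the share of all probes (22.0%), and on scaled arrays 0 were higher and 1 lower. On centred plates 2 were higher and 3 lower. Stmn2 lay on a plate with a median of -0.53 at 18 h, near its own value. Of 18 probes for Schwann cells and satellite glia 3 were higher and 4 lower (median -0.07), led by Cnp, a myelin enzyme (-0.65, 0.000312), Kcnj10, a glial potassium channel (0.75, 0.00148), and Egr2, a regulator of myelination (0.60, 0.0049). These glial counts stand beside 22.0% of all probes called. On scaled arrays 1 was higher and 1 lower, and on centred plates 2 were higher and 3 lower. Of 10 fibroblast probes 1 was higher and 3 lower (median -0.19), beside the same 22.0% of all probes. Col1a1 (-0.53, 0.00387), Dcn (-0.42, 0.00757) and Vim (-0.40, 0.0148) were lower. Pdgfra was higher (0.85, 0.0173), the second Col1a1 probe had -0.14 (adjusted p = 0.66), and on scaled arrays 0 were called in either direction. On centred plates 1 fibroblast probe was higher and 2 were lower. Of 6 endothelial probes limma called 0, with 2 at an unadjusted p under 0.05, and on centred plates 2 were called higher. The methods' t-test after adjustment called 0 of them, as in every list at 18 h, so it cannot set this list apart.

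Across settings at 18 h, no member turned its direction among those called. Of the 10 calls, 5 held on arrays scaled to a common spread (Cxcl2, Cxcl3, Cxcl6, Ccr2 and Ccr7), which shrinks the wide 18 h arrays by construction. A fit to the 3 arrays of 18 h alone called 2, Cxcl2 (adjusted p = 0.0234) and Ccr2 (0.0268). Leaving out 1 array lost Cxcr2 without array 1 or 2 and Cxcr4 probe 25F02 without any 1, and the 8 others stayed called.

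**Figure D5:**
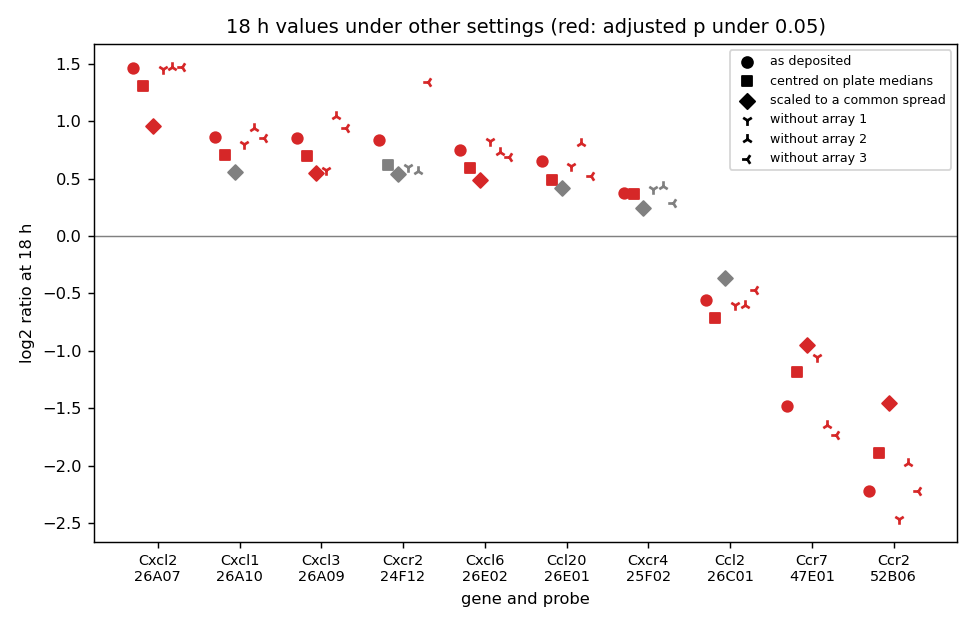
Log2 ratio at 18 h (y axis) of the 10 called probes (x axis) as deposited, centred on plate medians, scaled to a common spread, and without each array in turn. Red marks an adjusted p under 0.05 and grey marks a value that missed it. Cxcl2, Cxcl3, Cxcl6, Ccr2 and Ccr7 are red throughout.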

How the data were processed

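Total RNA of DRG cultures was labelled with dendrimers and hybridised to 15 spotted oligonucleotide arrays of 2 colours. The authors deposited linear ratios of treated (Cy5) over control (Cy3), 1 per probe and array. How they corrected background, normalized and filtered is not given in the sources used here. Scanner intensities were not used here, so signal over background is unknown. The number of arrays, 3 per time, limits the precision.

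Ratios were put on the log2 scale without centring, as every array's median lay within 0.1 of 0. Genes were named through the platform annotation, which can be old. A time was tested for a probe with 2 or more ratios of 3, and each probe of a gene had its own test. limma 3.58.1 (R 4.3.3) fitted 1 mean per time to all 15 arrays (lmFit, eBayes), with two-sided tests against 0, for 18 h minus 1 h and for any difference among times. p-values were adjusted by Benjamini-Hochberg over all probes tested. The fit was tested on simulated data. Figures used matplotlib 3.10.9.

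The members and lists were chosen with earlier results of these data known. Values on every array are given for each member past a threshold, for other probes of the same gene, and for Ccl2, Cxcl12 with Cxcr4 and Cx3cl1 with Cx3cr1. Other members are given by their range and 18 h mean, and other lists by counts and the called members with the smallest p. Differences between other times were chosen after the values were seen. Lists covered NF-kappaB and cytokine genes, receptor signalling, atypical receptors and chemoattractants, and markers of macrophages, other leukocytes, sensory neurons, glia, fibroblasts and endothelium.

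Alternatives were array and plate medians, a common spread, a fit to each time alone, a robust prior, array weights, other filters, a stricter threshold, a replicate block, the methods' t-test, and leaving out arrays. For the test of a single time, 1 array of that time was left out. For differences between times and the F test, 1 replicate number was left out at all 5 times. Same-numbered arrays of different times did not deviate together (30 pairs, correlations of -0.055 to 0.063). An effect shared by treated and control cells can cancel in a ratio, so this cannot tell whether the numbers pair samples. No arrays were duplicates (highest correlation 0.646).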

Additional observations from a re-analysis of the deposited data

Results flagged for a closer look

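For 4 probes the ratio of treated over control differed between 18 h and 1 h in the test of that difference, which a dye bias that changed between times would enter. The log2 ratio of Ccl2 probe 26C01 fell by 1.05, from 0.49 to -0.56, and its other probe 52C04 differed by -0.19 (limma adjusted p = 0.561). Ccr2 fell by 1.50, from -0.72 to -2.22. Ccl20 rose by 0.92, from -0.27 to 0.65, and Cxcl2 rose by 0.94, from 0.52 to 1.47. Each of these missed the threshold when any 1 replicate number was left out at all 5 times. On arrays scaled to a common spread Ccl2 probe 26C01 stayed called, and Cxcl2 (0.28), Ccr2 (-0.52) and Ccl20 (0.76) did not.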

How the results depend on the processing

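As reported, 3, 1, 3, 8 and 10 of the 28 probes were called at 1, 3, 6, 12 and 18 h, 4 between 18 h and 1 h and 5 among the 5 times. Scaling arrays to a common spread gave 6, 3, 4 and 5 at 1, 3, 12 and 18 h, 1 between 18 h and 1 h, and 1 among times. Centring on plate medians gave 0 at 1 h and 3 among times. The arrays of a time alone gave 0, 4, 0, 0 and 2 at the 5 times and 1 between 18 h and 1 h. Array weights gave 5, 6 and 4 at 1, 3 and 12 h. Leaving out the 3 wide arrays of 6 h and 12 h, which leaves 1 array at 12 h that is assumed to vary like the other times, gave 5 at 1 h and 2 at 12 h. The methods' t-test gave 0 at every time and 1 between 18 h and 1 h after adjustment, and 7 at 1 h, 6 at 3 h and 8 between 18 h and 1 h without it. An adjusted p under 0.01 gave 0 at 1 h, 4 at 12 h, 2 between 18 h and 1 h and 0 among times. The replicate block gave 2 among times. The F test was not run for single times or the t-test. Without 1 array of the time tested, the counts were 0 at 1 h, 1 at 3 h, 1 to 2 at 6 h, 2 to 9 at 12 h and 8 to 10 at 18 h. Without 1 replicate number at all 5 times, they were 0 both between 18 h and 1 h and among times. Array medians, the robust prior and the other filters left these counts within 1.5 times, and no member changed direction past a threshold. Over all probes at 18 h, 1101 were called as reported, 419 on scaled arrays, 183 with the 18 h arrays alone, 1003 on centred plates and 1 by the adjusted t-test. The cause of these changes was not tested.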
